A study of Sus scrofa with 2 samples.

Results

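T lymphocyte-like nuclei of pig renal cortex are described here in 1 unperfused and 1 perfused library of single-nucleus RNA sequencing. They were chosen by measured counts of UMIs, the random tags by which copies of the same RNA molecule are counted once, among barcodes with 500 to 6000 detected genes. A nucleus had to hold a UMI of at least 2 of THEMIS, CD2, SKAP1, CD3E and PTPRC, and 1 of them had to be THEMIS or CD2. It also had to hold fewer than 2 UMIs of the macrophage genes CD163, MRC1 and CSF1R together, and per 10000 UMIs fewer than 15 of the endothelial genes FLT1, PTPRB, TEK, EMCN and ADGRL4, fewer than 30 of the proximal tubule genes LRP2 and CUBN, and fewer than 20 of SLC12A1 of the thick ascending limb. This rule took 141 of 12955 nuclei, with 51 of 7035 in the unperfused and 90 of 5920 in the perfused library. The 5 T cell genes are therefore no finding about these nuclei.

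T lymphocytes recognise peptides on other cells through the T cell receptor, whose signal is carried by the CD3 chains and the zeta chain CD247 to the kinases LCK and ZAP70. CD4 and CD8 are the coreceptors that mark helper and cytotoxic T cells, and transcription factors such as BCL11B, TCF7, LEF1, RUNX3, TBX21 and the Ikaros family set the identity of the lineage. A healthy kidney holds few T cells, most of them in the interstitium between the tubules, where fibroblasts and pericytes form the stroma.

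Slaughterhouse pig kidneys (Sus scrofa) were flushed with heparin and stored cold before any perfusion began. The unperfused group was cortex taken before perfusion. The perfused group was cortex collected once the kidney had been machine-perfused outside the body for 120 min, under 100 mmHg and at 37 °C, with a salt solution without albumin or red blood cells as far as the methods describe it. Each group is 1 library, and the sources used here do not state whether 1 animal gave both pieces. The libraries held 34415254 UMIs in 7179 barcodes and 35525592 UMIs in 6205 barcodes.

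Nuclei of 1 library are not replicates of its condition, so no test between the conditions was possible. The intervals below are exact 95% intervals for the counting error and for no other source of error. The 51 unperfused members held 154193 UMIs (medians per nucleus 1697 UMIs and 1193 genes), and the 90 perfused members held 339669 (2543.5 UMIs and 1549.5 genes). A count of 0 in the summed members allows up to 19.5 CPM, UMIs scaled to the total of a library's members, in the unperfused library and 8.83 CPM in the perfused one. The libraries shared 14 barcode sequences, of which 0 belonged to a member. Scrublet called 2 members of each library a doublet, and all members were kept.

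The label was checked with 11 T cell markers outside the rule, among them CD3D, CD247, BCL11B, LCK, ZAP70, CD5, CD6, CD28, CD96 and PRKCQ. Their summed level in the members was 13.6 UMIs per 10000 before perfusion (11.8 to 15.5) and 12.2 after it (11.1 to 13.5). In macrophage-like nuclei, taken by the same macrophage genes, it was 2.78 and 3.91, and in endothelial-like nuclei 0.864 and 1.57. In proximal tubule-like nuclei, taken here as a background, it was 0.616 and 0.599. Over all nuclei outside the members it was 1.54 and 2.06. At least 1 of these markers was found in 37 of 51 unperfused members (72.5%) and 79 of 90 perfused members (87.8%), against 22.3% and 25.1% of proximal tubule-like nuclei at median depths of 5476 and 6871.5 UMIs, and 34.8% and 54.1% of macrophage-like nuclei at 2899 and 3461.5 UMIs. Over all nuclei outside the members this share was 30.6% and 38.8%. CD3G, a further CD3 chain, was at 0 UMIs in the members of both libraries.

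The level of these markers differed with the number of rule genes found. Members with exactly 2 of the 5 rule genes (15 unperfused and 24 perfused) held 2.84 and 4.94 UMIs of the 11 other markers per 10000, close to the level in macrophage-like nuclei. Members with 3 of them (22 and 40) held 19.1 and 13.8, and those with 4 (11 and 19) held 25.9 and 14.5. The 3 and 7 members with all 5 held 13.9 and 15.9. Just outside the rule, barcodes with only THEMIS or CD2 (11 and 17) held 0.408 and 1.22, and barcodes with 2 or more rule genes but neither THEMIS nor CD2 (55 and 120) held 5.73 and 8.22. The limits on macrophage genes alone kept out 10 and 36 barcodes, and those on endothelial genes alone 11 and 45. Members with 3 or more rule genes, where the other T cell markers were highest, numbered 36 before and 66 after perfusion.

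**Figure D1:**
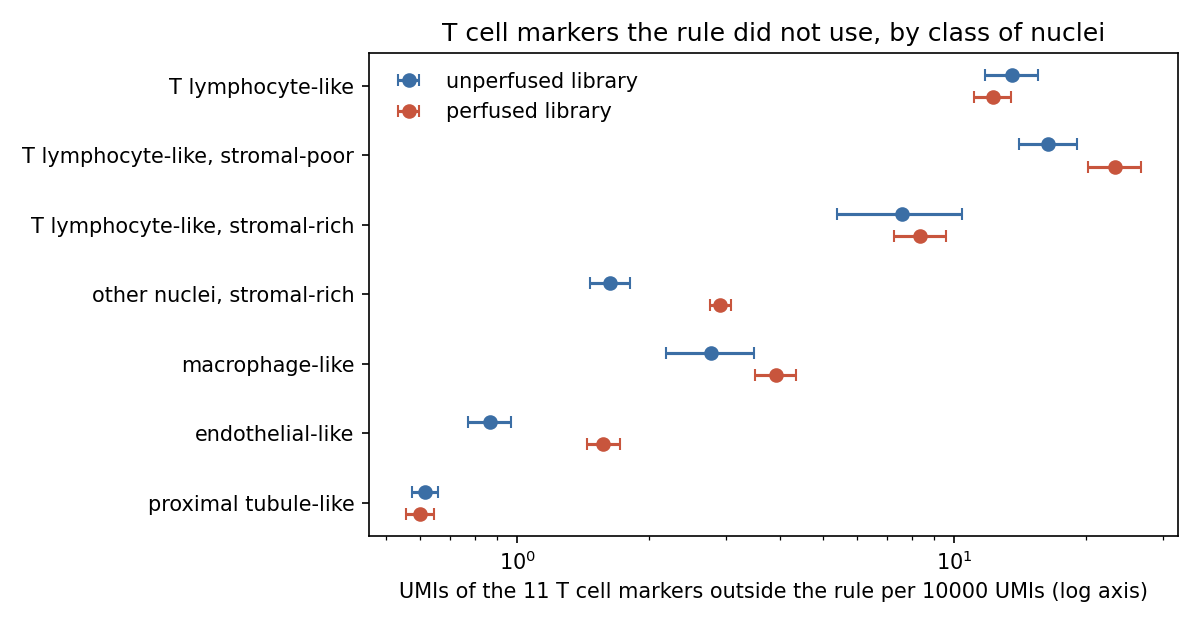
UMIs of the 11 T cell markers outside the rule per 10000 UMIs (x axis, log scale) by class of nuclei, in the unperfused (blue) and perfused (red) library, with exact Poisson 95% intervals. All members lie at 13.6 and 12.2, the stromal-poor members at 16.4 and 23.3, the stromal-rich members at 7.60 and 8.36, and proximal tubule-like nuclei at 0.616 and 0.599.

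Genes that led the members over all other nuclei, outside the rule, were those of lymphocytes and of leukocytes at large. They are a description, since the same nuclei chose them. ARHGAP15, a Rac GTPase-activating protein of leukocytes, stood at 1355 CPM in unperfused and 1175 CPM in perfused members and at 9.98 and 16.1 CPM in proximal tubule-like nuclei. DOCK2, a Rac activator that lymphocytes need for migration, was at 577 and 427 CPM. BCL11B, the zinc finger factor that commits progenitors to the T lineage, was at 233 and 256 CPM, against 29.2 and 63.3 CPM in macrophage-like nuclei. IKZF1 (Ikaros) was at 402 and 383 CPM, and TOX, a nuclear factor of T cell development and exhaustion, at 409 and 589 CPM. The other leading genes were PRKCB, RUNX1, ITGA4, CAMK4, IKZF3, TBX21, RHOH, BIN2, DOCK10 and STK17B, and 5 loci without a symbol led by ENSSSCG00000049669.

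Of 4067 genes with 20 or more UMIs in the members of either library, 492 (12.1%) were more than 2-fold higher in members than in other nuclei in both libraries. The T cell receptor list, outside the rule, had 13 of 16 such genes, leukocyte genes 15 of 17 and T lineage transcription factors 14 of 21. Stromal markers had 10 of 11. Proximal tubule markers and endothelial markers had 0 of 6 and 0 of 4. The rule set no limit on stromal genes, and the members' stromal RNA is described further below.

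Among the parts of the receptor, CD247 had 45 UMIs in 21 unperfused and 70 UMIs in 34 perfused members. CD3E, of the rule, had 16 UMIs in 11 nuclei and 53 UMIs in 27 nuclei, and CD3D had 9 UMIs in 5 and 13 UMIs in 10. A UMI of CD3D, CD3E or CD247 was found in 25 of 51 unperfused members (49.0%, 34.8 to 63.4) and 51 of 90 perfused members (56.7%, 45.8 to 67.1), so the intervals overlap. FYN, another Src kinase of the receptor, had 108 UMIs in 32 nuclei and 204 in 65 nuclei. LCK, the Src kinase bound to the coreceptors, had 15 and 36 UMIs, and ZAP70 had 15 and 24. The adaptor LCP2 (SLP-76) had 29 and 71 UMIs, and RASGRP1, which activates Ras behind the receptor, had 35 and 72.

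CD4 without CD8A or CD8B was found in 8 of 51 unperfused members (15.7%, 7.02 to 28.6) and 16 of 90 perfused members (17.8%, 10.5 to 27.3). CD8A or CD8B without CD4 was found in 5 (9.80%, 3.26 to 21.4) and 20 members (22.2%, 14.1 to 32.2). Neither coreceptor was found in 37 and 51 members, which sets a limit on what these shares can tell at this depth. In proximal tubule-like nuclei CD4 was found in 0.187% and 0.678%, and CD8A in 0.467% and 0.432%. When the nuclei were thinned to 1000 UMIs, which left out 9 unperfused and 7 perfused members, CD8A was found in 3 of 42 (7.14%, 1.5 to 19.5) and 6 of 83 members (7.23%, 2.70 to 15.1), against 7.84% and 21.1% unthinned. These counts are too few to place the shares. TRDC, the constant gene of the delta chain, was at 0 UMIs in both libraries as a whole.

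The members made up 0.725% of the unperfused (0.540 to 0.952) and 1.52% of the perfused nuclei (1.22 to 1.87), a fold of 2.10 (1.47 to 3.02). In these counts a higher share of T lymphocyte-like nuclei cannot be told apart from a lower number of other nuclei. The share rests on detecting UMIs, and perfused members were deeper. With every barcode thinned to 1000 UMIs before the rule was applied, 21 of 6828 (0.308%) and 36 of 5576 barcodes (0.646%) passed, a fold of 2.10 (1.19 to 3.78). With at least 3 of the 5 rule genes the fold was 2.18.

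The fold was smaller without the members that also carried stromal RNA. The 12 stromal markers PDGFRB, PDGFRA, COL1A1, COL1A2, COL3A1, DCN, FHL2, MEIS1, ACTA2, MYH11, NOTCH3 and C7 together held 18.0 UMIs per 10000 in members before perfusion and 45.2 after it. C7, a complement component made by renal interstitial fibroblasts, had more of these 278 and 1534 UMIs than any other of the markers. It had 80 in 11 of 51 nuclei and 374 in 50 of 90 nuclei. The median over nuclei was 1.21 and 29.6 per 10000, and 23 unperfused and 18 perfused members had 0 stromal UMIs.

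Members with at least 15 stromal UMIs per 10000 are called stromal-rich here, a limit chosen after these values were seen. They were 12 of 51 unperfused (23.5%) and 54 of 90 perfused members (60.0%), and 6 and 10 members lay between 10 and 20 per 10000. The 39 and 36 stromal-poor members made up 0.554% (0.395 to 0.757) and 0.608% (0.426 to 0.841) of their libraries, a fold of 1.10 (0.678 to 1.77). The intervals of these shares overlap. The stromal-rich members made up 0.171% (0.0882 to 0.298) and 0.912% (0.686 to 1.19), with intervals that do not overlap. As a share of stromal-poor barcodes alone, the fold was 1.27 (0.786 to 2.05). With every barcode thinned before the rule, 13 and 17 of the members were stromal-poor, 0.190% and 0.305% of all thinned barcodes, a fold of 1.60 (0.732 to 3.58).

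**Figure D2:**
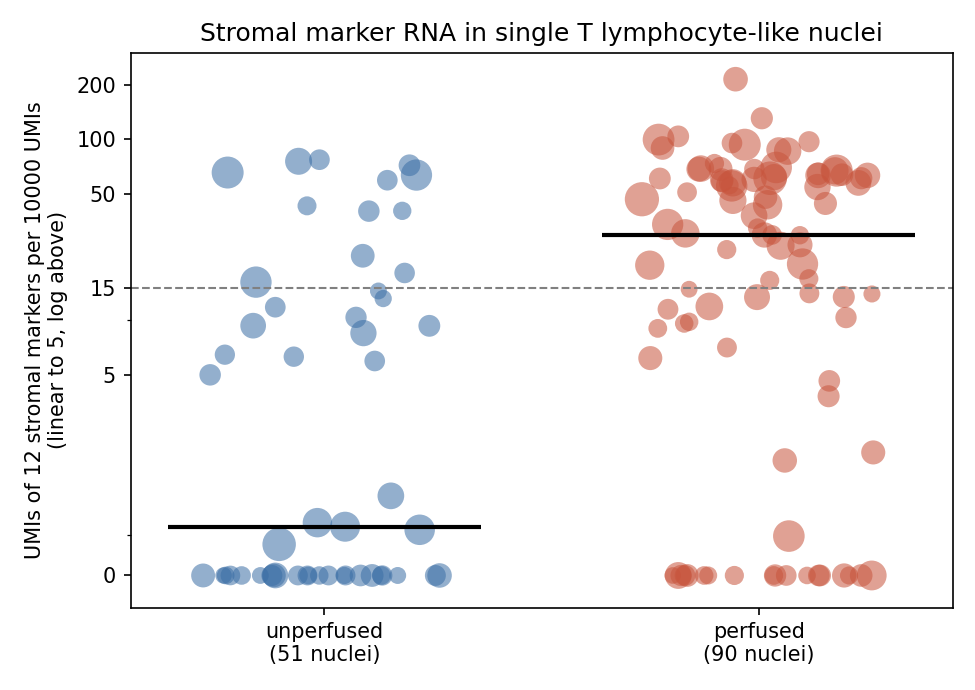
Stromal marker UMIs per 10000 UMIs (y axis, linear to 5 and logarithmic above) in each T lymphocyte-like nucleus of the unperfused (blue, 51 nuclei) and perfused (red, 90 nuclei) library; point area grows with the nucleus's UMIs, black bars are medians (1.21 and 29.6), and the dashed line is at 15. Of the perfused nuclei 54 lie at or above the line, against 12 of the unperfused nuclei, and the positions along the x axis are spread at random.

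**Figure D3:**
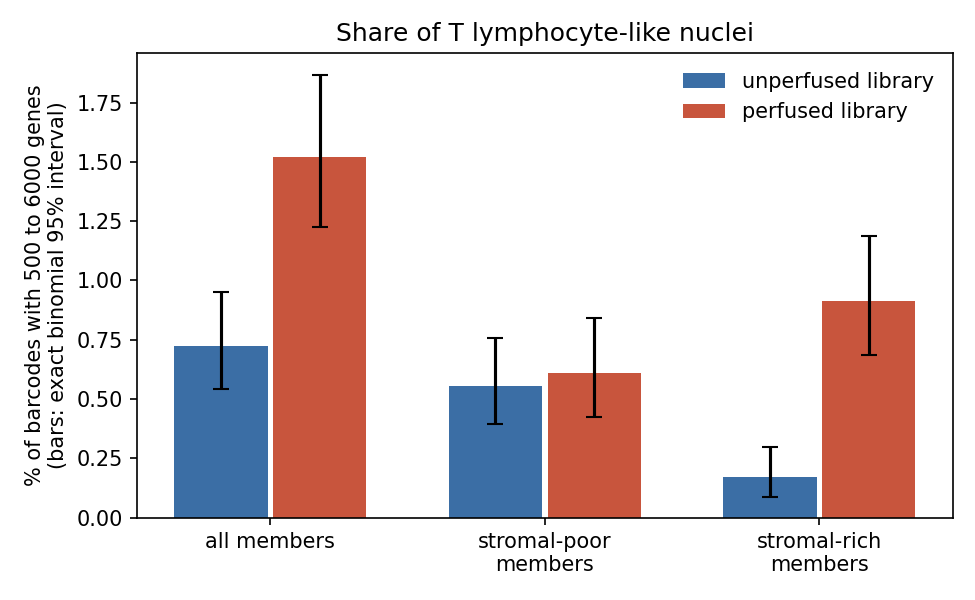
Share of all members, of stromal-poor and of stromal-rich members among barcodes with 500 to 6000 genes (y axis, %), in the unperfused (blue) and perfused (red) library, with exact binomial 95% intervals. The share of all members was 0.725% and 1.52%, that of stromal-poor members 0.554% and 0.608%, and that of stromal-rich members 0.171% and 0.912%.

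Stromal-rich members held more T cell marker RNA than other stromal-rich nuclei, as their choice by T cell genes favours. The 11 markers outside the rule stood at 7.60 (5.38 to 10.4) and 8.36 (7.26 to 9.57) UMIs per 10000 in stromal-rich members, at 1.63 and 2.92 in other stromal-rich nuclei, and at 16.4 (14.0 to 19.1) and 23.3 (20.2 to 26.7) in stromal-poor members. These are levels of summed nuclei, and 5 of 12 unperfused and 6 of 54 perfused stromal-rich members had 0 UMIs of the 11 markers. Members with exactly 2 rule genes, which held few of these markers, were not set apart. They include 1 unperfused stromal-poor nucleus with 12920 of 104217 UMIs and 0 UMIs of the markers. Their part in the levels of stromal-poor members was not tested. Perfused stromal-rich members had a median of 3860 UMIs and perfused stromal-poor members 1894. Scrublet called 1 of the 12 unperfused and 2 of the 54 perfused stromal-rich members a doublet.

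Stromal-rich barcodes were also more frequent in the perfused library as a whole. They were 604 of 7035 (8.59%) in the unperfused and 1252 of 5920 (21.1%) in the perfused library. Members made up 1.99% of them (1.03 to 3.44) in the unperfused and 4.31% (3.26 to 5.59) in the perfused library, and 0.606% (0.432 to 0.828) and 0.771% (0.541 to 1.07) of stromal-poor barcodes. The part of this difference between the libraries in the members' values was not tested. The free RNA in the members was estimated from 17 tubule genes at 31.9% and 31.2% of their UMIs.

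RNA of other lineages was also present. At least 15 UMIs per 10000 of the proximal tubule list were found in 24 of 51 unperfused and 36 of 90 perfused members, and of the distal list in 12 and 24. Most of the distal list's UMIs were of SLC8A1, which macrophages and stroma also express. It held 360 of 493 unperfused and 1071 of 1184 perfused UMIs of that list. At least 15 UMIs per 10000 of the endothelial list, which includes the rule's endothelial genes, were found in 5 unperfused and 17 perfused members, and of the macrophage list in 1 and 8. The thick ascending limb list passed this level in 10 and 14 members. The B cell list passed it in 4 and 26 members, mostly through EBF1, a factor of B cells that stroma also expresses, which had 77 UMIs in 13 nuclei and 379 in 50 nuclei, of which 5 and 9 UMIs lay in stromal-poor members. BANK1, a scaffold protein of B cell receptor signalling, had 7 UMIs in 6 unperfused and 57 in 25 perfused members (log2 ratio of CPM, perfused over unperfused, 1.89, 0.75 to 3.26), and 6 and 18 UMIs in stromal-poor members (1.82, 0.43 to 3.44). The B cell list had 3 of 3 tested genes more than 2-fold higher (EBF1, BANK1 and JCHAIN), against 14.7% of all genes tested, and a median of 1.62, and 2 of them passed the filter on low counts, at least 20 UMIs, through the perfused library alone. CD79A and CD79B, of the B cell receptor, were at 0 UMIs in the members, and at 16 and 18 and at 1 and 4 UMIs in the libraries as a whole. The part of B cell RNA in the members' values was not tested.

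Between the libraries, 599 of the 4067 genes (14.7%) were more than 2-fold higher in the perfused members and 187 (4.6%) were more than 2-fold lower. The median log2 ratio of all these genes, perfused over unperfused, was 0.08. Scaling by TMM factors instead of total UMIs moved every ratio up by 0.17, and DESeq2 size factors moved it up by 0.14. In stromal-poor members alone 165 of 1399 genes (11.8%) were more than 2-fold higher and 145 (10.4%) more than 2-fold lower, with a median of 0.14. All counts of list members below are set against these shares. Of the 4067 genes 2126 had 20 UMIs in the perfused members alone, which held more UMIs, and 519 of the 599 higher genes were among them, so that a gene low in the unperfused library could enter only if it was high in the perfused one. The counts and medians of lists below therefore describe the genes that passed and support no direction of a list.

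Of the stromal list 9 of 11 genes were more than 2-fold higher in the perfused members, with a median log2 ratio of 1.51. The filter was passed through the perfused library alone by 8 of the 11, among them 7 of the 9 higher genes. ACTA2, the actin of smooth muscle and myofibroblasts, had 13 UMIs in 6 nuclei of the unperfused and 203 in 38 of the perfused library (log2 ratio 2.83, 2.02 to 3.76). COL1A1 had 5 and 60 UMIs, and DCN, the proteoglycan decorin, had 16 and 102. In stromal-poor members, DCN was at 0 and 1 UMI and ACTA2 at 4 and 6. These genes lay in the stromal-rich members by the way those were chosen.

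The T cell receptor list, which includes 4 genes of the rule, had 1 of 20 genes more than 2-fold higher and 0 more than 2-fold lower, with a median log2 ratio of -0.10 that turned to 0.07 with TMM factors and to 0.04 with DESeq2 size factors. The gene past 2-fold was PTPN22, a phosphatase that restrains receptor signalling, with 6 UMIs in 5 nuclei and 33 in 16 (1.32, 0.05 to 2.87). CBLB, a ubiquitin ligase that also restrains it, had 65 and 219 UMIs (0.61, 0.21 to 1.04). Without the genes of the rule the median was -0.05 over 16 genes in all members. In stromal-poor members it was 0.30 over 11 genes, of which 9 had a ratio above 0 and 1, CBLB, was more than 2-fold higher, against a median of 0.14 for all genes. With the 4 genes of the rule, which helped to choose these nuclei, it was 0.55 over 15 genes.

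T lineage transcription factors had 1 of 21 genes more than 2-fold higher, 1 lower and a median of 0.11 in all members, which was -0.14 in members with at least 3 rule genes. ID3, an inhibitor of E proteins, was the higher one, with 3 and 36 UMIs (2.45, 0.78 to 4.79), of which 2 and 4 lay in stromal-poor members. TBX21 (T-bet), the factor of type 1 and cytotoxic T cells, was the lower one, with 25 UMIs in 8 nuclei and 21 in 13 (-1.39, -2.30 to -0.49), and 1 unperfused nucleus held 11 of them. In stromal-poor members TBX21 had 19 and 17 UMIs, a log2 ratio of 0.08. There 5 of 16 factors were more than 2-fold higher, namely TOX, IKZF3, ZEB2, STAT4 and FOXO1, and the median was 0.67.

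TOX had 63 UMIs in 25 unperfused and 200 UMIs in 41 perfused members (0.53, 0.11 to 0.96), and in stromal-poor members 57 UMIs in 21 nuclei and 124 in 21 nuclei (1.36, 0.90 to 1.84), where the richest nuclei held 6 and 21. BCL11B had 36 and 87 UMIs (0.13, -0.44 to 0.74), and in stromal-poor members 29 and 49 (0.99, 0.30 to 1.71). Of the 15 leading genes named above, the ratio was above 0 for 6 in all members, against 55.4% of all genes tested. The interval there lay above 0 for 2 and below 0 for 3. In stromal-poor members the ratio was above 0 for 15, against 57.9%, and the interval lay above 0 for 8. The split itself favours such a rise from all members to stromal-poor ones. The stromal-rich members it left out held less T cell marker RNA. Stromal-poor members held 67.6% of the unperfused but 26.0% of the perfused members' UMIs. Members with exactly 2 rule genes were not set apart here, and an unperfused nucleus among them held 12920 of 104217 stromal-poor UMIs. From unperfused to perfused stromal-poor members, the proximal tubule list went from 17.0 to 10.7 UMIs per 10000. The thick ascending limb list went from 11.5 to 5.43. The distal list, which over all members was mostly SLC8A1, went from 42.7 to 52.7. The part of these differences in the ratios of the leading genes was not tested. ITGA4, the alpha 4 integrin that binds VCAM1, was lower over all members, at 98 UMIs in 39 nuclei and 140 in 50 (-0.62, -1.01 to -0.24), and level in stromal-poor members at 67 and 57 UMIs (0.00, -0.53 to 0.54).

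**Figure D4:**
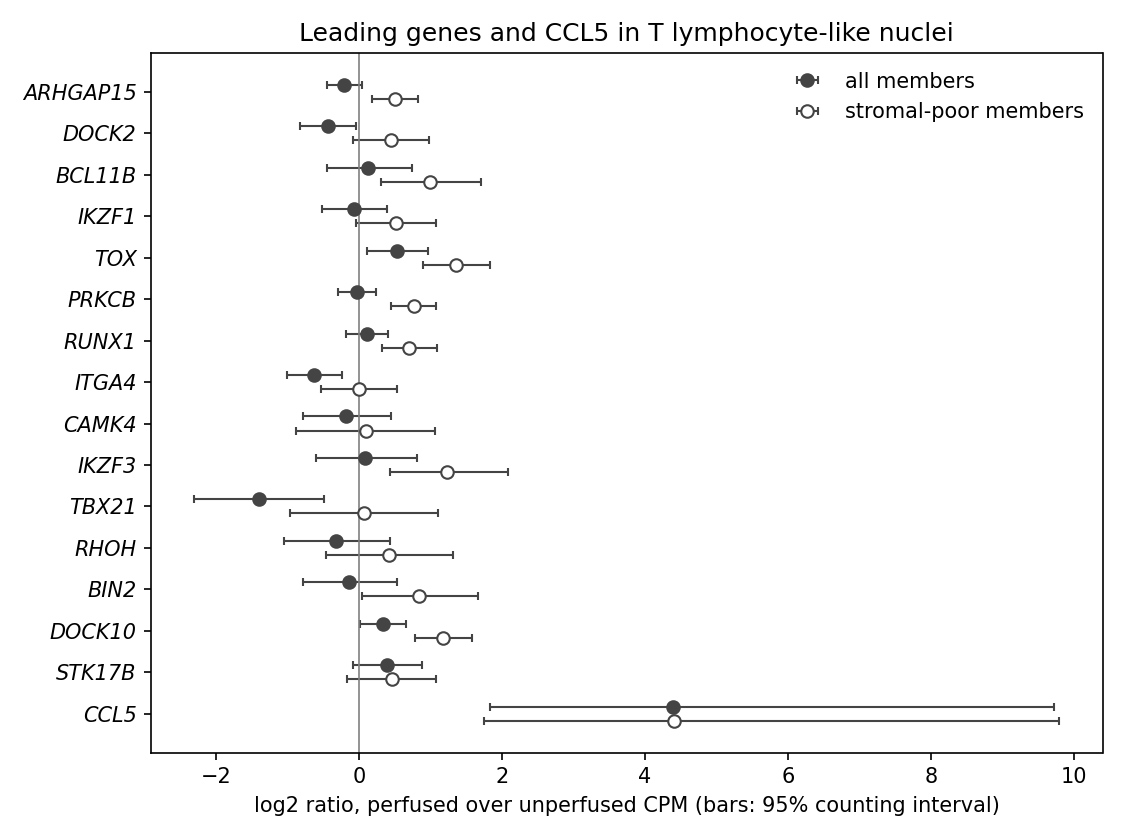
Log2 ratio of CPM, perfused over unperfused (x axis), with exact 95% counting intervals, of the 15 leading genes and CCL5 in all members (filled) and in stromal-poor members (open). For all 15 leading genes the open point lies to the right of the filled one, and CCL5 lies at 4.38 and 4.41. The split itself favours this shift and it is no finding about perfusion. Stromal-rich members, which the open points leave out, held less T cell marker RNA than stromal-poor ones. Stromal-poor members held 67.6% of the unperfused but 26.0% of the perfused members' UMIs. The open points include members with exactly 2 rule genes, whose part in this shift was not tested. Tubule lists also differed between unperfused and perfused stromal-poor members, with 17.0 and 10.7 UMIs per 10000 for the proximal tubule. The thick ascending limb list stood at 11.5 and 5.43. The distal list, which over all members was mostly SLC8A1, stood at 42.7 and 52.7.

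CCL5, a chemokine of memory and cytotoxic T cells and of activated NF-kB, is 1 of the genes named for their large ratio and passed the filter through the perfused library alone. It had 1 UMI in 1 of 51 unperfused members and 46 UMIs in 22 of 90 perfused members, a log2 ratio of 4.38 (1.83 to 9.72). In stromal-poor members it had 1 UMI and 18 UMIs in 9 nuclei (4.41, 1.74 to 9.79). The richest nucleus held 7 of these 18 UMIs and was the 1 perfused member over the study's limit of 7% mitochondrial UMIs, without which 39 UMIs remained in all members. CCL5 was found in 0.840% and 2.03% of proximal tubule-like nuclei, and in nuclei thinned to 1000 UMIs in 2.38% and 7.23% of members. It was higher in other perfused classes too, with a log2 ratio of 2.53 (1.11 to 4.44) in macrophage-like and 2.28 (1.48 to 3.16) in endothelial-like nuclei.

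GNLY, the gene of the cytolytic protein granulysin, had 1 UMI in 1 unperfused and 26 UMIs in 16 perfused members (3.56, 0.96 to 8.92). In stromal-poor members it had 1 and 4 UMIs (2.24, -1.10 to 7.86), too few to place the difference. The cytotoxic list had 2 of 5 genes more than 2-fold higher, GNLY and CCL5, and 4 of the 5 passed the filter through the perfused library alone, these included. KLRK1 (NKG2D) had 12 and 25 UMIs (-0.08, -1.13 to 1.05), and CD226, an activating receptor, had 28 and 57 (-0.11, -0.79 to 0.59). The ranges of KLRK1 and CD226 include a difference of 0.

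The other 8 genes that stood highest by the rule for named genes were KCND2, BMP6, NRP2, GPX1, C1QB, CHMP2A, EMILIN1 and SLC25A5. KCND2, a potassium channel, had 2 and 94 UMIs and 1 perfused nucleus held 38 of them. Its log2 ratio was 4.42, and it was 1.56 with any 2 rule genes and 1.22 without the limits on other lineages. BMP6, a bone morphogenetic protein of endothelium and stroma, had 1 and 37 UMIs, and NRP2, a semaphorin receptor, had 1 and 32. In stromal-poor perfused members KCND2 and BMP6 were at 0 UMIs and NRP2 at 3. Of the 365 perfused UMIs of the 10 genes, 38 (10.4%) lay in stromal-poor members, which held 26.0% of all UMIs of perfused members and 18 of these 38 were of CCL5.

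The 10 genes that stood lowest were IL1RAPL1, PPARGC1A, WDSUB1, GRM5, MPPED2, NOA1, KCNJ15, TMEM72, CCDC198 and KLHL3. PPARGC1A, the coactivator of mitochondrial biogenesis that tubule cells express highly, had 125 UMIs in 13 unperfused and 48 in 15 perfused members (-2.52, -3.03 to -2.03), and 1 unperfused nucleus held 44. The ratio was -0.98 with any 2 rule genes and -1.31 without the limits on other lineages, and with free RNA subtracted 90 and 0 UMIs remained. MPPED2, a phosphodiesterase, had 65 and 29 UMIs (-2.30, -2.99 to -1.65), with 25 in 1 nucleus. KLHL3, an adaptor of a ubiquitin ligase that acts on salt transport in the distal nephron, had 62 and 35 UMIs (-1.96, -2.61 to -1.34), of which single nuclei held 22 and 17. It stood at -0.82 (-1.55 to -0.12) in stromal-poor members and at -0.76 in members with at least 3 rule genes. PPARGC1A was also lower in perfused macrophage-like (-0.84, -1.21 to -0.46) and endothelial-like nuclei (-0.39, -0.59 to -0.19). Of the unperfused UMIs of these 10 genes 394 of 468 (84.2%) lay in stromal-poor members, which held 67.6% of all UMIs of unperfused members.

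Some genes of early activation were at a higher CPM in the perfused members. Of the immediate early genes 4 of 13 were more than 2-fold higher, with a median of 0.65, and 11 of the 13, all 4 of these included, passed the filter through the perfused library alone. KLF6, a zinc finger factor, had 6 UMIs in 6 nuclei and 43 in 26 (1.70, 0.46 to 3.23), and in stromal-poor members 5 and 22 (2.38, 0.94 to 4.13). FOS had 8 UMIs in 5 nuclei and 47 in 27 (1.42, 0.32 to 2.71), of which 3 and 5 lay in stromal-poor members. JUN had 23 and 46 UMIs, a ratio of -0.14 (-0.89 to 0.65). ATF3, a stress-induced factor, had 5 and 33 UMIs, of which 29 of the perfused lay in stromal-poor members and 16 in 1 nucleus. CD69, the early activation and residency antigen, had 5 UMIs in 4 nuclei and 20 in 9 (0.86, -0.60 to 2.63).

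Of the NF-kB targets 5 of 8 were more than 2-fold higher, with a median of 1.15, and these 5 passed the filter through the perfused library alone. CCL5 is 1 of them. NFKBIZ had 6 and 31 UMIs (1.23, -0.05 to 2.78), TNFAIP3, the feedback inhibitor A20, had 5 and 23 (1.06, -0.36 to 2.81), and CD83 had 3 and 21 (1.67, -0.08 to 4.06). The intervals of these 3 genes reach 0. TNFAIP8, an apoptosis regulator, had 57 and 190 UMIs (0.60, 0.16 to 1.05) and in stromal-poor members 40 and 69 (1.02, 0.44 to 1.62), where 3 genes of the list had enough UMIs.

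The actin list holds actin genes with regulators and targets of the coactivator MRTF and its partner SRF. MRTF-SRF is the mechanosensitive pathway that the study examined by perfusion. Of the list 9 of 19 genes were more than 2-fold higher, with a median of 0.86. The filter was passed through the perfused library alone by 9 of the 19, among them 5 of the 9 higher genes. TMSB4X, which binds monomeric actin, had 33 UMIs in 20 nuclei and 360 in 64 (2.31, 1.79 to 2.87), and 25 and 31 UMIs in stromal-poor members (0.55, -0.26 to 1.37). ACTB had 20 and 123 UMIs (1.48, 0.79 to 2.24), with 12 and 17 in stromal-poor members (0.74, -0.41 to 1.94). ACTG1 had 26 and 156 UMIs (1.45, 0.84 to 2.10), with 22 and 18 in stromal-poor members (-0.05, -1.04 to 0.91). TPM4, a tropomyosin, had an interval above 0 there (2.35, 0.49 to 4.81), but its 3 and 13 UMIs are below the filter of 20 UMIs. In stromal-poor members 5 genes of the list had enough UMIs and 0 were more than 2-fold higher. Over these same 5 genes the median was 0.55 in all members and 0.55 in stromal-poor members. FHL2 is in this list and in the stromal list. MRTFB itself had 57 and 64 UMIs (-0.97, -1.51 to -0.43).

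Ribosomal protein genes and mitochondrially encoded genes were also higher, mostly in stromal-rich members. Of the ribosomal protein genes 58 of 62 were more than 2-fold higher with a median of 1.75 that was 0.98 with nuclei weighted equally, and their share of UMIs was 0.691% and 2.21% in all members and 0.727% and 1.04% in stromal-poor members. Mitochondrially encoded genes made up 0.301% and 1.21% of UMIs, and 0.344% and 0.545% in stromal-poor members. In other stromal-rich nuclei the ribosomal share was 0.926% and 2.16%, and the mitochondrial share 0.297% and 1.24%. Both are RNAs of the cytoplasm or of mitochondria, and their part in the differences above was not tested.

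**Figure D5:**
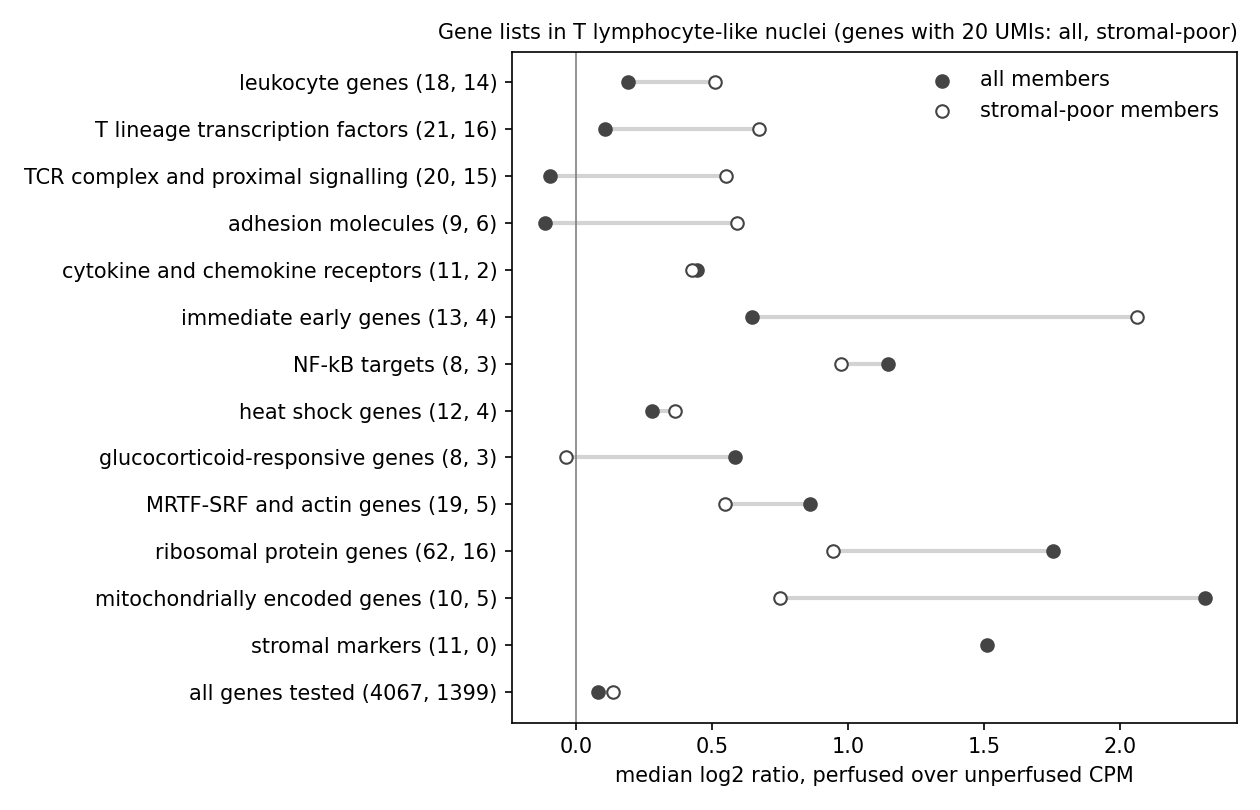
Median log2 ratio of CPM, perfused over unperfused (x axis), of gene lists in all members (filled) and in stromal-poor members (open), with the number of genes that had at least 20 UMIs in each. Fewer genes had enough UMIs in stromal-poor members (5 of 19 in the actin list, 16 of 62 in the ribosomal list), so filled and open points are not over the same genes, and the T cell receptor list, which lies at -0.10 and 0.55, includes genes of the rule. The stromal split itself favours higher open points for T cell lists. Stromal-rich members held less T cell marker RNA, and more of the perfused than of the unperfused members' UMIs.

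Macrophage markers were sparse in both libraries, as the rule's limit on 3 of them requires, and 4 of them passed the filter, all through the perfused library alone, so that their higher level there is partly set by the filter. C1QB, of the complement C1q complex of macrophages, had 1 UMI and 27 UMIs in 18 nuclei (3.62, 1.01 to 8.97), and C1QC had 0 UMIs and 22 UMIs, at least 1.74 on the log2 scale. CD86, a costimulatory ligand of antigen-presenting cells, had 2 and 46 UMIs, of which 26 of the perfused lay in stromal-poor members and 17 in 1 nucleus. LYZ was at 0 UMIs in both libraries as a whole.

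Further lists are given by their counts and medians. Heat shock genes had 2 of 12 genes more than 2-fold higher, HSP90AB1 and HSPA5, and a median of 0.28 that was below 0 with nuclei weighted equally or thinned. Interferon-stimulated genes had 2 of 6 (median 0.14), hypoxia and glycolysis genes 3 of 10 (0.64) and apoptosis genes 1 of 6 (0.44). Glucocorticoid-responsive genes had 3 of 8 (0.59). ZBTB16 (PLZF), a factor of innate-like T cells and a glucocorticoid target in stroma, had 81 UMIs in 13 nuclei and 362 in 56 (1.02, 0.67 to 1.39), of which 11 and 18 lay in stromal-poor members, and 70.4% and 75.6% of proximal tubule-like nuclei had a UMI of it. Cytokine and chemokine receptors had 3 of 11 more than 2-fold higher (0.45), adhesion molecules 1 of 9 (-0.11) and leukocyte genes 3 of 18 (0.19). CD8 and gamma-delta genes had 1 of 2 (0.70), which is ZBTB16. Naive and recirculating genes (0 of 4, median -0.55), residency genes (0 of 3, 0.73), checkpoint receptors (0 of 3, 0.53), helper genes (0 of 2, 0.12) and cell cycle genes (0 of 2, -0.51) had few genes with enough UMIs. Without the genes that the rule limits, proximal tubule markers (0 of 6, median 0.07), thick ascending limb markers (0 of 4, -0.01) and distal markers (0 of 3, 0.43) had no gene past 2-fold in either direction, and of the endothelial markers EGFL7 was past it (1 of 4, 0.34).

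A few nuclei held most of the UMIs of some genes. SLC8A1, a sodium-calcium exchanger of the distal tubule that macrophages and stroma also express, had 360 UMIs in unperfused and 1071 in perfused members, and the richest nucleus held 189 and 415 of them. Counting intervals are too narrow for such genes.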

How the data were processed

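The authors made 1 single-nucleus library of each condition with Chromium 3′ v3.1 chemistry and counted UMIs with Cell Ranger 5.0.1 against the Ensembl release 103 pig annotation, reads in introns included. The deposited values are raw UMI counts per gene and barcode. Barcodes outside the authors' filters were still present, so the counts precede those filters. They are taken to precede the removal of free RNA by SoupX as well. Strand handling is not given in the sources used here.

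UMIs were summed over members per library in python 3.11.15 (numpy 2.4.6, scipy 1.17.1) and expressed as CPM and as log2 ratio with an exact conditional binomial interval. A gene was tested with 20 or more UMIs in the members of either library. Against a library at 0 UMIs, a bound was taken from 3 counts, and no bound was given if the other library held 3 or fewer. Levels in members against other nuclei used an offset of 5 CPM. Shares have exact binomial intervals, and summed levels exact Poisson intervals. The ratio and its interval were tested on simulated data. Scrublet ran in scanpy 1.11.5.

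The members, the 29 gene lists and the markers were chosen with earlier results of these data known. Of 489 list genes 448 are in the files, and 822 genes without a symbol took one from a table of identifiers. Named genes are those of the rule and its markers, members of lists under discussion, the 15 leading genes over other nuclei, and the 10 genes with the largest ratio in each direction that were found in at least 10 members of the library with more and had an interval without 0. The alternatives were 15 settings on limits, doublets, scaling, depth and free RNA. The stromal-poor members and the rule on thinned barcodes, 2 further alternatives, were chosen after seeing the data. TMM factors came from edgeR 4.0.16 and size factors from DESeq2 1.42.0 (R 4.3.3). No sequence is shown, because no genome or sequence table was used here. Some genes of the lists are not reported here by name.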

Additional observations from a re-analysis of the deposited data

Results flagged for a closer look

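CCDC198, a gene of the proximal tubule, stood out because its ratio went opposite ways in T lymphocyte-like and proximal tubule-like nuclei. Its log2 ratio was -2.00 (-3.21 to -0.87) in T lymphocyte-like nuclei, with 20 UMIs before and 11 after perfusion, and 0.25 (0.19 to 0.30) in proximal tubule-like nuclei. In macrophage-like nuclei it was also below 0, at -1.29 (-2.15 to -0.42), and in endothelial-like nuclei it was 0.13 (-0.29 to 0.55). With free RNA subtracted, 8 and 0 UMIs remained in T lymphocyte-like nuclei. With 1 library per condition the difference was not tested.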

How the results depend on the processing

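The share of members was 0.512% (unperfused) and 1.11% (perfused) with at least 3 of the 5 rule genes, 1.51% and 3.55% with any 2 of them, 1.29% and 3.87% without the limits on other lineages, and 0.308% and 0.646% with every barcode thinned before the rule. With stromal-rich members left out, but all barcodes kept in the denominator, the perfused share was 0.608% and the fold of the shares 1.10 (1.27 over stromal-poor barcodes), where it was 2.08 to 2.99 under the other alternatives. The genes more than 2-fold higher and lower were 906 and 469 with any 2 rule genes, 945 and 371 without the limits on other lineages, 1100 and 568 with at least 10 UMIs, 1621 and 1496 with no filter, and 190 and 21 in nuclei thinned to 1000 UMIs, in each of which another number of genes was tested (7036, 9348, 6741, 10194 and 934 of them). Without stromal-rich nuclei 165 were higher, and without the richest nucleus per gene 111 were lower. The median of the T cell receptor list was -0.40 with at least 3 rule genes, 0.32 with any 2, 0.55 without stromal-rich nuclei and -0.26 with nuclei weighted equally. The median of heat shock genes turned to -0.25 with nuclei weighted equally and to -0.53 in thinned nuclei. The cause was not tested. With free RNA subtracted, the perfused members held 0 UMIs of MPPED2, KCNJ15 and TMEM72, and without the limits on other lineages the ratios of MPPED2 and TMEM72 were -0.74 and -0.54. For CCL5 the log2 ratio ran from 2.55, without the limits on other lineages, to 4.55, with TMM factors, and was also 2.55 without the richest nucleus per gene, a bound because the unperfused members then held 0 UMIs. TMM factors gave 773 higher and 135 lower genes, and DESeq2 size factors 713 and 150. No paired analysis was possible because each condition has 1 library. Depth limits the comparison, since 1894 of the 4067 genes had 20 or more UMIs in the members of both libraries.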
